A study of Arabidopsis thaliana with 6 samples.

Results

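The genes described here encode 10 subunits of the translation initiation factor eIF3 in Arabidopsis thaliana, namely subunits a, b1, c, d, e, f, g1, h1, i and k. They were taken as 10 listed rows of a table of 27241 named loci measured on 6 microarrays, and all 10 were found. The 10 rows were chosen on the nuclear minus cellular differences of these same arrays, so those differences are given as a description and carry no test. RNA came from whole embryos at the 16-cell stage, 72 h after hand pollination. On 3 arrays it was nuclear RNA, from nuclei pulled down by INTACT, in which a tag on the nuclear envelope is biotinylated in chosen cells, here through a two-component system driven by a marker of the whole embryo. On the other 3 it was total RNA of embryos dissected with a micromanipulator. The promoter of the marker, the plant strain and whether the dissected embryos carried the tag are not given in the sources used here. Per the sample titles the 3 arrays of a group are biological replicates, though the plants or harvests behind them are not named. Isolation method and RNA compartment differ together between the groups and cannot be told apart.

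eIF3 is the largest of the eukaryotic initiation factors. It sits on the small ribosomal subunit, helps to bring the initiator tRNA and the mRNA to it, keeps the large subunit away until the start codon is found, and in plants also takes part in reinitiation after short upstream reading frames. Its core is built from subunits with a PCI domain and subunits with an MPN domain, the same kinds of subunit that make up the COP9 signalosome and the lid of the proteasome, while the remaining subunits carry RNA-recognition or WD-repeat domains or bind at the edge of the core.

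All values are log2 RMA intensities, in which a step of 1 is a doubling, and 3 values for a group stand in the order of replicates 1 to 3. Array medians lay between 2.47 and 2.68, and a value near them is dim and compresses any fold. On markers of the embryo, the cellular arrays were bright, with list medians of 7.06, 6.50 and 5.92, while the nuclear arrays had 2.53, 2.83 and 2.25, about the array median. Of these 10 embryo markers 7 fell in nuclear RNA, among them the homeobox genes WOX2 and WOX8 and the NF-Y subunit gene LEC1. WOX2, WOX8 and LEC1 lay at 2.09 to 3.11 on the nuclear arrays. Other embryo markers were brighter there, with PHB at 3.83 to 4.76, ATML1 at 4.73 to 6.41 and PDF1 at 7.12 to 8.71, and DRNL had a higher nuclear mean, by 0.45, with all nuclear arrays above all cellular ones. Markers of the seed coat, the maternal tissue around the embryo, had medians of 6.89, 5.66 and 5.88 on the nuclear and of 3.12, 4.84 and 5.87 on the cellular arrays. The cellular medians of this list rose in steps from replicate 1 to replicate 3, and replicate 3 reached the level of nuclear replicates 2 and 3. Over all genes limma called 1284 lower and 313 higher in nuclear RNA at a Benjamini-Hochberg adjusted p under 0.05, so 80.4% of calls were lower, against 63.4% after cyclic loess and 68.5% after quantile normalization between arrays.

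The 10 eIF3 genes were all dimmer in nuclear than in cellular RNA, by 1.88-fold to 6.39-fold. Their median difference was -1.69 on the log2 scale, against 0.13 over all genes and -0.81 over the 5581 genes whose cellular mean lay in the range of the 10, from 4.21 to 7.93. Those 5581 genes were picked by the cellular mean alone, which is part of the difference, and such a choice favours negative differences. How far it does so here was not tested. For 10 of 10 the nuclear arrays lay below every cellular array, a pattern found for 14.4% of all genes and for 41.1% of the genes in that range. The fit over all genes called 7 of the 10 lower and 0 higher, against 4.71% of all genes called lower, 1.15% called higher and 18.1% of the genes in that range called lower. Nothing is read from these counts, since the same contrast chose the genes. The count of 7 was 4 with nuclear replicate 2 or 3 left out, 2 with cellular replicate 1 left out and 1 with cellular replicate 2 left out, while it was 5 with nuclear replicate 1 and 8 with cellular replicate 3 left out. After cyclic loess it was 3, and after quantile normalization also 3. Each array holds RNA of many cells or nuclei. Fewer cells of a type, other tissue in the sample and less RNA per cell therefore cannot be told apart.

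**Figure D1:**
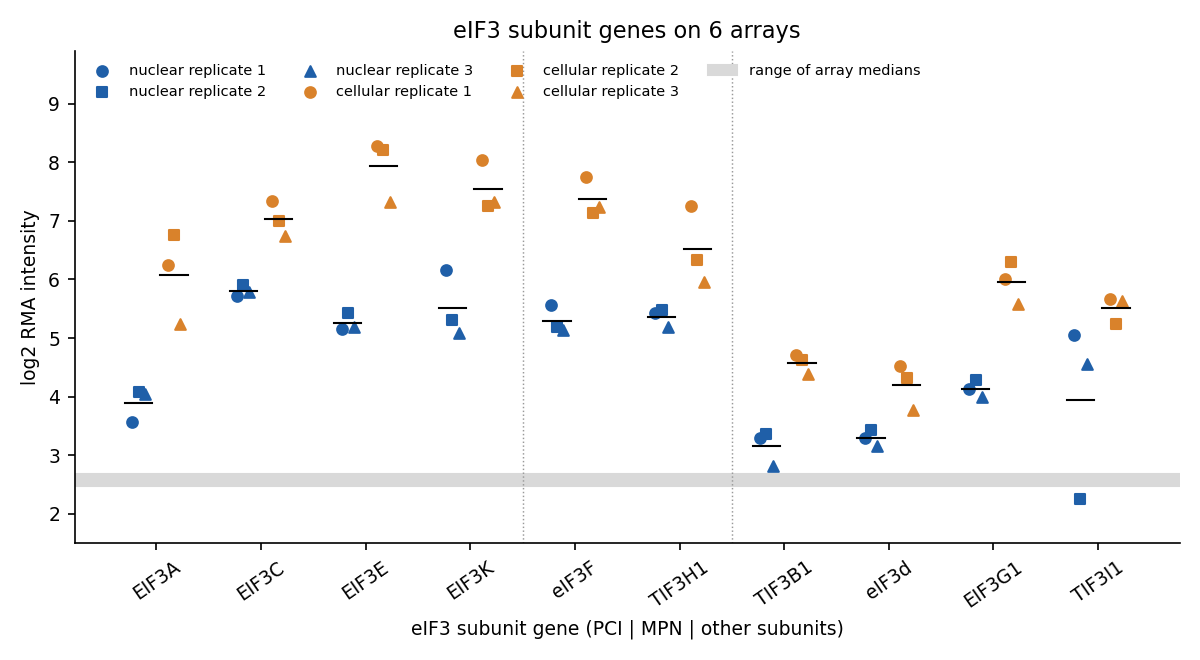
Log2 RMA intensity of the 10 eIF3 subunit genes (points, single arrays, with the shape giving the replicate number; bars, group means of 3 arrays; grey band, array medians of 2.47 to 2.68). For every subunit the 3 nuclear points lie below the 3 cellular points, and the lone nuclear point of TIF3I1 at 2.25 falls below the band.

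The PCI subunits form the scaffold of the complex. EIF3E (AT3G57290_at, also INT6), which in Arabidopsis also binds the COP9 signalosome, had 5.15, 5.43 and 5.19 on the nuclear and 8.28, 8.20 and 7.31 on the cellular arrays. The nuclear arrays lay close together and more than 1.5 log2 units below the nearest cellular array, and the mean difference, the largest of the 10, was -2.68 (SE 0.30), or 6.39-fold. EIF3A (AT4G11420_at), the large scaffold subunit, had 3.56, 4.07 and 4.04 on the nuclear and 6.24, 6.76 and 5.24 on the cellular arrays, a difference of -2.19 (SE 0.41). Cellular replicate 3 was the lowest of its group for both genes. EIF3K (AT4G33250_at), a small subunit, had 6.16, 5.30 and 5.09 on the nuclear and 8.04, 7.25 and 7.33 on the cellular arrays, a difference of -2.02 (SE 0.37). EIF3C (AT3G56150_at), which in yeast binds eIF1 and eIF5, had 5.72, 5.90 and 5.78 on the nuclear and 7.34, 7.0 and 6.73 on the cellular arrays. Its nuclear arrays were tight (SD 0.09, n = 3), and its difference of -1.22 (SE 0.22) was the smallest of the 4 PCI genes, whose median was -2.11.

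The MPN subunits eIF3f and eIF3h pair with each other in the core. The gene of eIF3f (AT2G39990_at), a subunit needed for pollen and embryo development in Arabidopsis, had 5.57, 5.19 and 5.13 on the nuclear and 7.74, 7.14 and 7.24 on the cellular arrays. Its difference was -2.07 (SE 0.24), or 4.21-fold. TIF3H1 (AT1G10840_at), whose product promotes reinitiation after upstream reading frames and is phosphorylated in the TOR pathway, had 5.42, 5.47 and 5.19 on the nuclear and 7.26, 6.33 and 5.95 on the cellular arrays. Its cellular arrays were spread (SD 0.67, n = 3), the lowest of them came within 0.5 log2 units of the highest nuclear array, and its difference was -1.15 (SE 0.36), or 2.22-fold.

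Of the remaining subunits, EIF3G1 (AT3G11400_at), an RNA-recognition subunit that acts in scanning and reinitiation, had 4.13, 4.28 and 4.0 on the nuclear and 6.0, 6.29 and 5.58 on the cellular arrays, a difference of -1.82 (SE 0.24). TIF3B1 (AT5G27640_at), a scaffold subunit that holds eIF3i and eIF3g, had 3.29, 3.36 and 2.81 on the nuclear and 4.70, 4.63 and 4.38 on the cellular arrays, a difference of -1.42 (SE 0.23). The gene of eIF3d (AT4G20980_at), a subunit that in human cells can bind the mRNA cap, had 3.29, 3.42 and 3.16 on the nuclear and 4.52, 4.32 and 3.78 on the cellular arrays. Its difference of -0.91 (SE 0.25), or 1.88-fold, was the smallest of the 10, and its levels, like those of TIF3B1, were near enough to the array medians for the fold to be compressed. TIF3I1 (AT2G46280_at, also TRIP-1), a WD-repeat subunit that the brassinosteroid receptor BRI1 can phosphorylate, had 5.05, 2.25 and 4.55 on the nuclear and 5.67, 5.23 and 5.64 on the cellular arrays. Nuclear replicate 2 alone lay below the array median, while nuclear replicate 1 lay just under the lowest cellular array. The difference of -1.56 (SE 0.71) became -0.72 without nuclear replicate 2, so that array decided its size. These 4 genes had a median of -1.49, and the smaller median than that of the PCI genes was not tested.

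**Figure D2:**
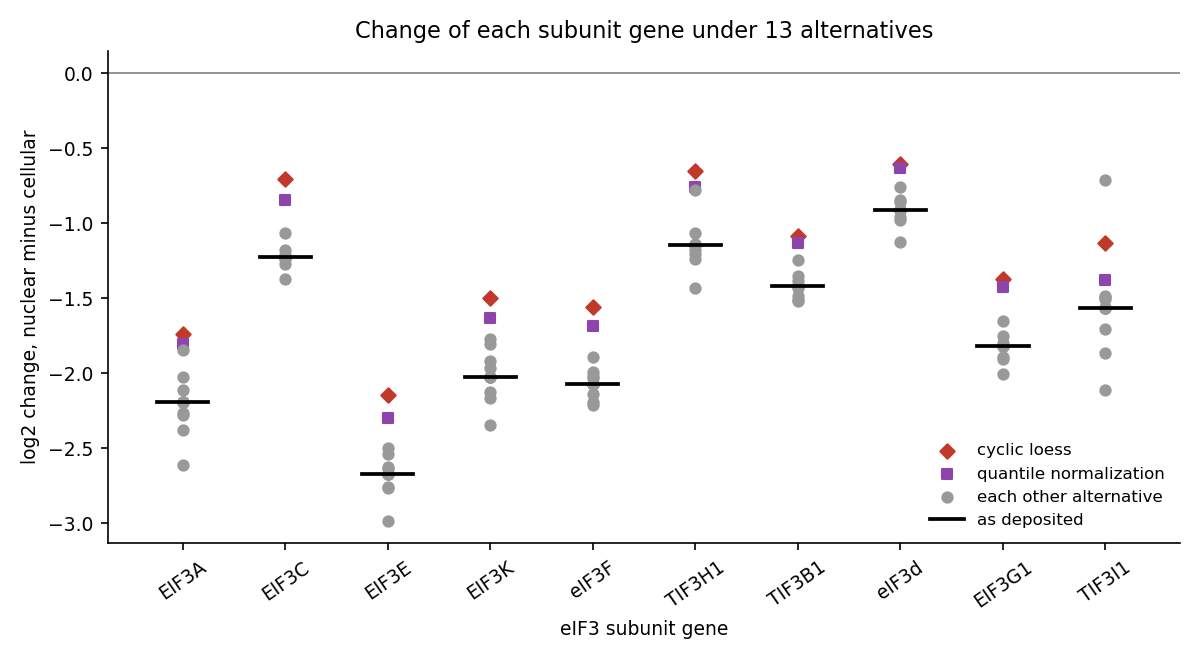
Nuclear minus cellular log2 change of each subunit gene as deposited (bar) and under each of 13 alternatives (points). All points lie below 0, though only cyclic loess and quantile normalization could have turned a sign. The points of both lie above the bar for every gene. TIF3I1 has the point farthest above its bar, -0.72 without nuclear replicate 2.

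The profiles of the subunit genes over the arrays are described here without a test, since the contrast between the groups chose the genes. The mean of the 10 was 4.73, 4.47 and 4.49 on the nuclear and 6.58, 6.32 and 5.92 on the cellular arrays. Over the 6 arrays the 45 pairs of genes had a median Pearson r of 0.92, from 0.50 to 0.99, a description in which the shared difference between the groups weighs most. After each gene's group means were removed, the median r over the 6 deviations was 0.51, from -0.41 to 0.96, and 35 of 45 pairs were above 0. No such r was computed for pairs of other genes, so these values are not shown to be particular to the subunits. TIF3I1 followed the others least, with r = 0.62 to the mean of the other subunits, against 0.90 to 0.98 for the other 9. Within the cellular group, replicate 1 was highest for 8 of 10 genes and replicate 3 lowest for 7, and replicate 3 was highest for 0. Within the nuclear group, replicate 2 was highest for 7 genes and replicate 3 lowest for 6. The order of the cellular replicates was the reverse of that of the seed coat medians of 3.12, 4.84 and 5.87. On the nuclear arrays the subunit means ran in the same order as the seed coat medians of 6.89, 5.66 and 5.88. Most subunits did not have that order. Nuclear replicate 2, lowest in the mean, was lowest for 1 gene, TIF3I1 at 2.25, and highest for 7. Neither order of the means was tested.

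Of the 16147 other genes whose higher group mean lay above the median of all values, the 8 nearest to the mean profile of the subunits had r from 0.997 to 0.999 over the 6 arrays. They were AT1G75670 (difference -2.55), KLCR3 (-1.85), CDT1A (-3.10), AT1G66420 (-3.82), AT4G37090 (-4.46), AT1G79150 (-3.16), AT3G58430 (-3.34) and AT5G46070 (-1.86). KLCR3 is a kinesin light chain-related gene and CDT1A acts in licensing of DNA replication. In all 8 cellular replicate 1 was the highest and cellular replicate 3 the lowest array of its group. That order follows largely from their choice by r to the subunit profile, which has it too. Among the other loci listed with eIF3, the one nearest to the subunit profile was AT5G37475 (r = 0.97), in place 524.

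Beside the 10 genes, 11 further loci were listed with eIF3, of which the gene table names EIF3B-2, TIF3C2 and EIF3G2, and the other 8 are given by locus alone. Of the 11, 6 fell in nuclear RNA, 0 rose, and before adjustment 9 were lower and 0 higher at p under 0.05. Every one of the 11 differences was negative, and their median was -1.64. The 6 falls are 54.5% of the list, beside 4.71% of all genes and 18.1% of genes in the cellular range of the subunits. That range does not match this list in brightness. EIF3B-2, which fell, lay below it at a cellular mean of 3.02, and AT5G25757 lay above it at 9.53. For 10 of the 11 all nuclear arrays lay below all cellular ones, beside 14.4% and 41.1% for the same sets of genes. Whether the values of these 11 played a part in leaving them out of the 10 is not recorded. The count of 6 was 2 without nuclear replicate 1, 3 without nuclear replicate 2 and 0 without cellular replicate 1 or cellular replicate 2, while it was 5 without nuclear replicate 3 and 6 without cellular replicate 3. It was 3 both after cyclic loess and after quantile normalization.

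The named second copies of subunit genes differed among themselves. EIF3B-2, the second gene of subunit b, had 1.60, 1.88 and 1.26 on the nuclear and 3.04, 3.21 and 2.79 on the cellular arrays and fell by 1.44 on the log2 scale (SE 0.24, adjusted p = 0.0239). That is a difference like the -1.42 of TIF3B1, with r = 0.99 between both genes over the 6 arrays, although its nuclear level lay under the array medians. Its call was lost without nuclear replicate 1, nuclear replicate 3, cellular replicate 1 or cellular replicate 2. TIF3C2 had 1.98, 1.98 and 1.59 on the nuclear and 2.09, 2.55 and 2.00 on the cellular arrays, near or under the array medians, with a difference of -0.36 (SE 0.24, adjusted p = 0.385) against -1.22 for EIF3C. EIF3G2 had 2.21, 1.87 and 2.17 on the nuclear and 4.76, 2.58 and 3.83 on the cellular arrays, so its cellular arrays spread over more than 2 log2 units, and its difference of -1.64 (SE 0.53) did not pass (adjusted p = 0.138). The locus next to TIF3I1 on the chromosome, AT2G46290, with 0 genes between them, had 2.86, 3.46 and 2.12 on the nuclear and 2.35, 4.22 and 2.91 on the cellular arrays. These groups overlapped, and the difference was -0.35 (SE 0.56, adjusted p = 0.717), turning to 0.18 without cellular replicate 2. Its r with TIF3I1 over the 6 arrays was -0.22. How far the probes of such copies pick up each other's transcripts was not tested.

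Among the loci without a name, AT3G02200 had 3.93, 3.76 and 4.88 on the nuclear and 6.75, 7.47 and 6.04 on the cellular arrays and fell 5.93-fold (log2 SE 0.46, adjusted p = 0.0306). AT1G66070 fell 5.14-fold (adjusted p = 0.0290), AT5G15610 fell 3.29-fold (adjusted p = 0.0198), AT5G37475 fell 3.23-fold (adjusted p = 0.0464) and AT5G44320 fell 2.51-fold (adjusted p = 0.0218). Each of the 5 lost its call with cellular replicate 1 left out, and again with cellular replicate 2 left out. Without nuclear replicate 1 the call was lost for AT3G02200, AT1G66070 and AT5G37475, without nuclear replicate 2 for AT3G02200, AT5G15610, AT5G37475 and AT5G44320, and without nuclear replicate 3 for AT5G37475. AT5G25757 had the largest difference of all eIF3 subunit genes and listed loci, -3.65 (SE 0.83), but did not pass (adjusted p = 0.0575). Its nuclear replicate 2, at 3.90, lay far below nuclear replicates 1 and 3 at 6.47 and 7.25, as in TIF3I1, while its cellular arrays had 9.70, 9.54 and 9.34, and it passed without nuclear replicate 2 and without nuclear replicate 3. Without nuclear replicate 2 its difference was -2.67, close to the -2.76 of EIF3E in the same setting. AT5G25754 had a difference of -1.55 (SE 0.41, adjusted p = 0.0845).

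**Figure D3:**
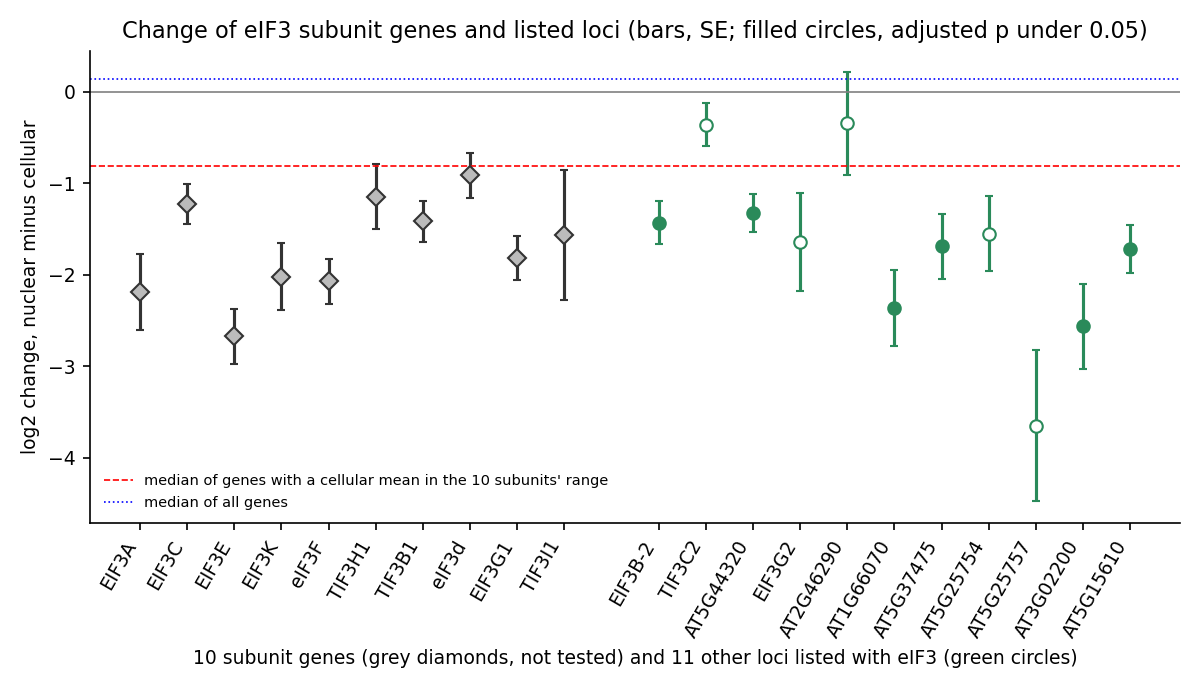
Nuclear minus cellular log2 change with its SE for the 10 subunit genes (grey diamonds, not tested, since this contrast chose them) and the 11 other loci listed with eIF3 (green circles, filled where the adjusted p was under 0.05). The dashed line at -0.81 is the median of the 5581 genes in the cellular range of the 10 subunits, and the dotted line at 0.13 is the median of all genes. TIF3C2 and AT2G46290 are the points that lie above the dashed line.

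The remaining initiation factors were given by the step they serve. eIF2 carries the initiator tRNA as a GTP-bound complex, and eIF2B reloads it with GTP. Of 17 measured loci listed for these, 3 named in the gene table, 3 fell and 0 rose (before adjustment, 6 lower and 1 higher at p under 0.05). The falls are 17.6% of the list, beside 4.71% of all genes and 18.1% of genes in the cellular range of the subunits. Loci of the list also lie below that range, while all 3 falls lie within it. The 18.1% thus does not match the list in brightness. The median difference was -0.37. The falls were EIF2 ALPHA (AT5G05470; 2.64, 2.95 and 3.78 on the nuclear and 6.54, 6.62 and 5.25 on the cellular arrays; 8.06-fold, adjusted p = 0.0213), EIF2 GAMMA (AT1G04170; 4.87-fold, adjusted p = 0.0172) and AT2G40290 (3.58-fold, adjusted p = 0.0389), the last named because the count is small. The count was 1 without nuclear replicate 2, 0 without cellular replicate 1 or 2, and 5 without cellular replicate 3. Without nuclear replicate 1 EIF2 ALPHA lost its call as well, and AT2G40290 lost its call with each array left out except cellular replicate 3.

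The factors of scanning, subunit joining and the eIF5A and eIF6 families gave 0 calls among 16 measured loci by limma (before adjustment, 3 lower and 1 higher at p under 0.05). Nothing is read from 0 calls in so short a list, beside 4.71% of all genes called lower and 1.15% called higher. These factors had a median difference of -0.49. Their lowest p were those of ELF5A-1 (AT1G13950; difference -1.18, SE 0.28, adjusted p = 0.0655) and of AT2G04520 (-1.70, SE 0.42, adjusted p = 0.0706), which passed without nuclear replicate 1. The count was 1 without nuclear replicate 1, 2 or 3, and the 1 call without nuclear replicate 2 was a rise, as was the 1 call after cyclic loess or quantile normalization.

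Cap-binding and other mRNA-binding factors recruit the mRNA. Of 19 measured, 3 fell and 0 rose (before adjustment, 10 lower and 0 higher at p under 0.05). The falls are 15.8% of the list, beside 4.71% of all genes and 18.1% of genes in the cellular range of the subunits. That range does not match this list in brightness, since the list also holds dimmer and brighter loci. The median difference was -0.93. The falls were the cap-binding protein eIFiso4E (AT5G35620, symbol LSP1; 3.99, 3.05 and 4.11 on the nuclear and 5.66, 6.17 and 5.23 on the cellular arrays; 3.92-fold, adjusted p = 0.0372), the poly(A)-binding protein gene PAB5 (AT1G71770; 3.49-fold, adjusted p = 0.0230) and EIF4A-III (AT3G19760; 3.48-fold, adjusted p = 0.0488), a helicase of the exon junction complex. All 3 calls were lost after cyclic loess and after quantile normalization, each of which left 0. The count was 1 without nuclear replicate 1 or 2, 0 without nuclear replicate 3, cellular replicate 1 or cellular replicate 2, and 7 without cellular replicate 3. In the same list, EIF4A1 (AT3G13920), the helicase of initiation, had a difference of -0.47 (SE 0.22, adjusted p = 0.262) and EIF4G (AT3G60240), the scaffold that bridges the cap-binding complex to eIF3, one of -0.08 (SE 0.29, adjusted p = 0.885). Both were picked after their values were seen, and neither p shows that the levels were equal. Neither direction is settled, since cyclic loess turned EIF4A1 to 0.091 and EIF4G to 0.46, quantile normalization turned EIF4G to 0.31, and leaving out nuclear replicate 3 or cellular replicate 2 turned EIF4G to 0.11 or 0.09.

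**Figure D4:**
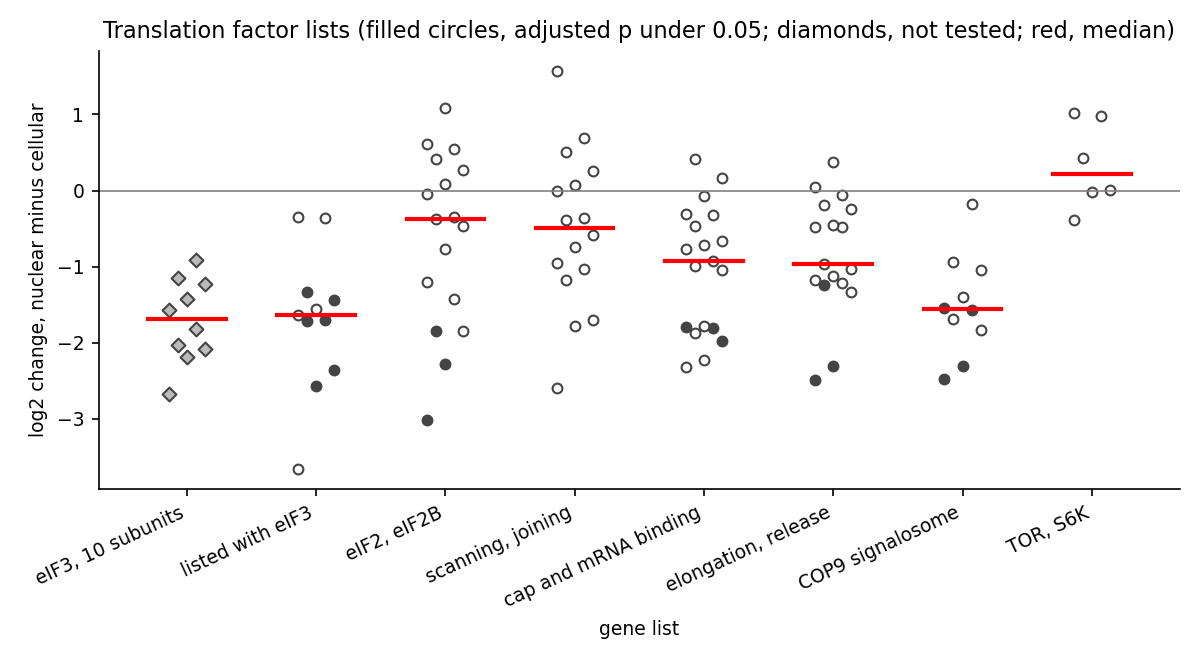
Nuclear minus cellular log2 change of each gene in 8 lists (circles, filled where the adjusted p was under 0.05; red bar, list median). The 10 eIF3 subunits (median -1.69), the loci listed with eIF3 (-1.64) and the COP9 signalosome (-1.55) have the lowest medians, and the TOR and S6K list, at 0.22, is the one list with a median above 0. The eIF3 subunits (grey diamonds) were chosen on this contrast and are not marked for a test.

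Elongation and release factors act after initiation. Of 17 measured, 7 named in the gene table, 3 fell and 0 rose (before adjustment, 8 lower and 0 higher at p under 0.05). The falls are 17.6% of the list, beside 4.71% of all genes and 18.1% of genes in the cellular range of the subunits. Of the falls, AT5G19510 and AT1G07930 lay above that range, with cellular means of 9.14 and 8.45. The 18.1% thus does not match this list in brightness. The median difference was -0.96. The falls were AT5G19510 (5.63-fold, adjusted p = 0.0357), ERF1-2 (AT1G12920), a release factor gene (4.95-fold, adjusted p = 0.0106), and AT1G07930 (2.35-fold, adjusted p = 0.0348). The count was 1 without nuclear replicate 1, nuclear replicate 2 or cellular replicate 1, but 0 with cellular replicate 2 left out and 2 with cellular replicate 3 left out, and it was 1 after cyclic loess. The call of AT5G19510 was lost without each of the first 4 of these arrays, and that of ERF1-2 was lost without cellular replicate 2. AT1G07930 lost its call with each array left out except nuclear replicate 3, and after cyclic loess and quantile normalization.

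The COP9 signalosome, which removes the ubiquitin-like protein NEDD8 from cullins, shares the PCI and MPN build of eIF3. Of its 10 measured genes 4 fell and 0 rose (before adjustment, 7 lower and 0 higher at p under 0.05). The falls are 40% of the list, beside 4.71% of all genes and 18.1% of genes in the cellular range of the subunits. The falls lie within that range, but the list also holds dimmer genes such as CSN5A, with a cellular mean of 3.93. The 18.1% thus does not match the list in brightness. All 10 differences were negative. Their median was -1.55, beside 0.13 over all genes and -0.81 over genes in that range. COP8 (AT5G42970, subunit CSN4) had 3.93, 2.83 and 3.74 on the nuclear and 6.48, 6.07 and 5.36 on the cellular arrays, and fell 5.55-fold (log2 SE 0.41, adjusted p = 0.0243). FUS6 (AT3G61140, subunit CSN1) fell 4.94-fold (adjusted p = 0.0453), CSN6A fell 2.91-fold (adjusted p = 0.0324) and CSN6B 2.96-fold (adjusted p = 0.0401). The count was 1 without nuclear replicate 1, 0 without nuclear replicate 2, nuclear replicate 3, cellular replicate 1 or cellular replicate 2, and 3 without cellular replicate 3. It was 1 after cyclic loess and 1 after quantile normalization. CSN6A and CSN6B lost their calls with each array left out in turn. CSN5A, the catalytic subunit and one of 2 genes for it, had 3.88, 3.52 and 3.88 on the nuclear and 4.29, 4.0 and 3.51 on the cellular arrays. These overlapped (difference -0.17, SE 0.26, adjusted p = 0.698), and the sign turned after cyclic loess (0.15) and quantile normalization (0.12) and without cellular replicate 1 (0.0063). CSN5A was picked after its values were seen.

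The TOR kinase and its S6 kinases signal to eIF3h. Of 6 genes 0 passed by limma, beside 4.71% of all genes called lower and 1.15% called higher, so nothing is read from that 0. Before adjustment 0 of the 6 had p under 0.05. The median difference was 0.22. Their lowest p were those of S6K2 (AT3G08720; 3.56, 2.80 and 4.47 on the nuclear and 2.16, 2.32 and 3.28 on the cellular arrays; difference 1.02, SE 0.50, adjusted p = 0.276) and RAPTOR1 (AT3G08850; difference 0.98, SE 0.48, adjusted p = 0.277). In both genes the groups overlapped, and 0 of the 6 passed under any of 13 alternatives.

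The marker lists gave the following levels beside the eIF3 genes. Of 15 seed coat markers 14 had a higher nuclear mean, 0 passed by limma and 4 were higher before adjustment at p under 0.05, and their summed linear intensity ran from 1906 to 4585 on the nuclear and from 366.7 to 2419 on the cellular arrays. The 10 embryo markers, of which 7 fell, summed to 281.0 to 512.2 on the nuclear and to 918.7 to 1913 on the cellular arrays. The 11 endosperm markers summed to 41.2 to 77.1 and to 38.0 to 46.6, with list medians under the array medians on all 6 arrays and 0 calls. RMA intensities have no zero, so no marker was at 0. The part of seed coat RNA in the eIF3 differences was not tested. The median difference of the 10 eIF3 genes, -1.69 over all arrays, was -1.63, -1.68 and -1.76 without cellular replicates 1, 2 and 3 in turn, and that of EIF3A was -2.11, -1.85 and -2.61.

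**Figure D5:**
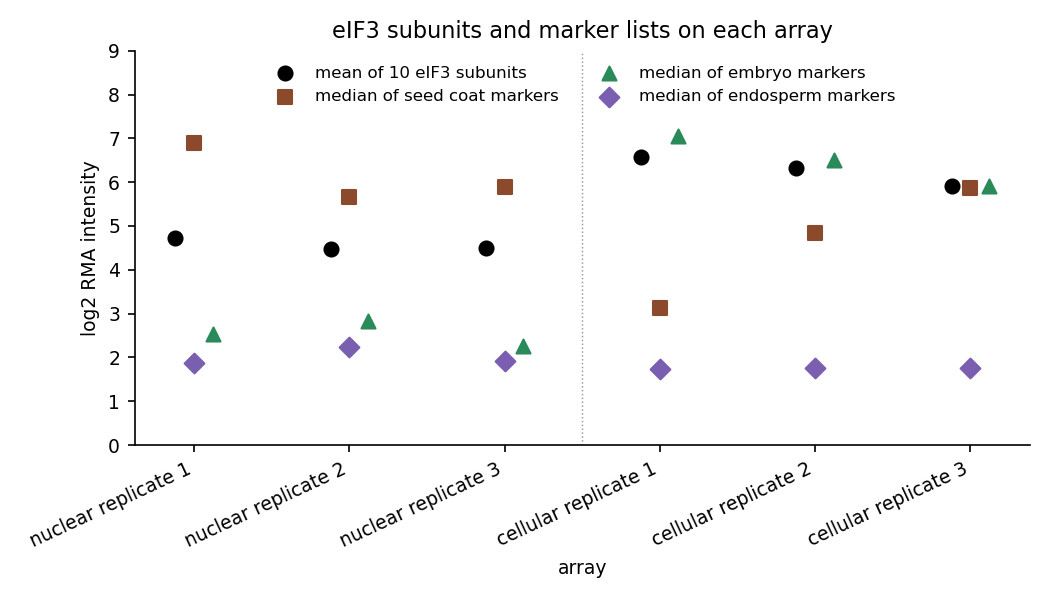
Mean log2 intensity of the 10 eIF3 subunits and median log2 intensity of the seed coat, embryo and endosperm marker lists on each of the 6 arrays. Among the cellular arrays the subunit mean (6.58, 6.32 and 5.92) and the embryo median are lower where the seed coat median (3.12, 4.84 and 5.87) is higher. Among the nuclear arrays the subunit mean (4.73, 4.47 and 4.49) and the seed coat median (6.89, 5.66 and 5.88) run in the same order. The subunit mean of nuclear replicate 2 includes TIF3I1 at 2.25, while 7 of the 10 subunits were highest on that array.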

How the data were processed

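The authors deposited 1 linear intensity value per locus and array, and per the submitters' processing notes RMA made these intensities. Neither its version nor the array type, probe set definition or genome build is given in the sources used here. This method usually gives all arrays the same probe distribution, which can move differences between RNA pools of unlike make-up. Here log2 was taken once, with no further normalization, no filter on dim genes and no detection calls. Of 27826 rows, 27241 matched the RefSeq table for TAIR10.1 and were fitted, and 585 were left out. Groups came from the sample titles, with 3 arrays each, which limits the precision. Nuclear minus cellular was fitted over all genes by lmFit and eBayes of limma 3.58.1 under R 4.3.3, with a two-sided test on 4 residual degrees of freedom and 2.33 from the prior, and called at a Benjamini-Hochberg adjusted p under 0.05. The test was checked on simulated data. P-values weigh each difference against the spread between these samples, whose plants or harvests are not named.

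The subunits, gene lists and rules were chosen with earlier results of these data known. The text names all 10 subunits, all 11 other loci listed with eIF3, from each other list its 2 largest rises and falls past the threshold or else the 2 lowest p, and the 8 genes most alike in profile. A further 14 genes outside this rule are named, as remaining falls of a short count or picked after their values were seen, and the alternatives were run for them too. List placements of loci that the table does not name rest on general knowledge. No sequences were used here. Alternatives were cyclic loess, quantile normalization, brighter genes alone, a trended robust variance, array weights, all rows, a replicate block and each array left out in turn.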

Additional observations from a re-analysis of the deposited data

How the results depend on the processing

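All 10 subunit genes stayed below 0 under all 13 alternatives, with the nearest value to 0 that of eIF3d after cyclic loess (-0.61). Of their 130 values 118 moved by less than 1 SD between replicates. Brighter genes alone, the trended robust variance, all rows and the replicate block left each difference unchanged by construction. As no subunit's groups overlapped, array weights or a left-out array could not turn a sign. Only cyclic loess and quantile normalization could have done so. Cyclic loess took the median of all genes from 0.13 to 0.02 and that of the 10 subunits to -1.25, or from -1.83 to -1.27 relative to all genes, and the cause was not tested. With it, calls numbered 3 of the 10 subunits, 3 of the loci listed with eIF3, 0 cap-binding factors, 1 scanning factor, 1 elongation factor and 1 COP9 signalosome gene. Quantile normalization gave 3, 3, 0 and 1 for the first 4 of these and 1 COP9 signalosome gene. The brighter genes alone gave 5 cap-binding factors and 1 scanning factor, array weights 5 cap-binding factors, and the trended robust variance 2 COP9 signalosome genes. Among the loci listed with eIF3, TIF3C2 was too dim for the brighter set.

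With the replicate number as a block, 689 genes were called (571 lower and 118 higher), against 1597, with 4 subunits, 0 other loci listed with eIF3, 1 eIF2 gene, 1 cap-binding factor, 1 elongation factor and 0 COP9 signalosome genes. Same-numbered arrays did not deviate together (r = -0.05, -0.06 and -0.01 for numbers 1 to 3), and 0 of 3 pairs passed 0.1, so the numbers were not taken as pairs.

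Leaving out 1 array at a time gave 282 to 2107 called genes, 1 to 8 subunits with a median of -1.92 to -1.63, 0 to 6 other loci listed with eIF3, 0 to 5 eIF2 and eIF2B genes, 0 to 1 scanning factors, 0 to 7 cap-binding factors, 0 to 4 elongation factors, 0 to 3 COP9 signalosome genes and 0 TOR and S6K genes. Of all genes, 2107 were called without cellular replicate 3, against 1597 on all arrays, and 282 without cellular replicate 2. How far fewer arrays alone moved these counts was not tested. Among named genes 9 values reversed, all of genes without a call. AT2G46290 ran from -0.75 to 0.18 over the 6 arrays left out in turn, EIF4G from -0.28 to 0.11 (0.09 without cellular replicate 2) and CSN5A from -0.39 to 0.0063. Cyclic loess gave 0.46 for EIF4G, 0.15 for CSN5A and 0.091 for EIF4A1, and quantile normalization 0.31 for EIF4G and 0.12 for CSN5A. Of 584 values of the other 45 named genes, 429 kept their side of the threshold, 133 lost a call and 13 gained one. The 14 genes named outside the rule were added after seeing the data. A planned count of promoter motifs was not run, since no sequences were used here. Signal near the array medians limits what can be said of TIF3C2, EIF3B-2 and the nuclear level of TIF3B1.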

Other observations

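TIF3I1 was not the one listed gene with a low nuclear replicate 2. Of all genes, 138 (0.507%) lay more than 2 log2 units below both other nuclear arrays on nuclear replicate 2, against 106 on nuclear replicate 1 and 52 on nuclear replicate 3. The corresponding counts were 143, 15 and 74 on cellular replicates 1 to 3. Among the listed translation and signalosome genes, nuclear replicate 2 was low in this way for TIF3I1, AT5G25757, AT5G54940 and the COP9 signalosome gene FUS12 (6.46, 2.79 and 5.71 on nuclear replicates 1 to 3). EIF2 BETA (AT5G20920) had 5.60, 2.82 and 4.10 there. Over the 6 arrays the profile of TIF3I1 had r = 0.91 with AT5G25757, 0.94 with EIF2 BETA and 0.93 with FUS12, genes picked after their values were seen. Nuclear replicate 1 was low in the same way for EIF4E (AT4G18040), the main cap-binding protein gene, at 3.04, 5.59 and 5.22 against 7.22, 6.77 and 6.79 on the cellular arrays.

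EIF6A (AT3G55620), which keeps ribosomal subunits apart, had 3.88, 2.54 and 7.76 on the nuclear and 7.61, 7.42 and 6.92 on the cellular arrays, so its nuclear arrays spanned its cellular ones, and its difference of -2.59 passed without nuclear replicate 3 alone among the alternatives. AT5G54760 and AT5G54940, listed with the scanning factors, had higher nuclear than cellular means, by 0.69 (adjusted p = 0.0902) and 1.58 (adjusted p = 0.293), neither past the threshold. The first passed after cyclic loess and after quantile normalization, and the second without nuclear replicate 2.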
